A study of Mus musculus with 37 samples.

Results

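The cytosolic ribosomal protein genes were followed in cortical astrocytes of the mouse 4 months after brain injury or sham surgery. Members were chosen by name: protein-coding genes called Rpl or Rps followed by a digit, Rplp0 to Rplp2 and Rpsa, without the Rps6k kinases, Rps19bp1 and names with -ps. The rule found 85 genes among the 21975 identifiers of the deposited tables, of which 77 are the main genes of the ribosome (46 of the large or 60S subunit and 31 of the small or 40S subunit) and 8 are paralogs, second genes that resemble a main one. The mice were male and wild type, named CD1 in the methods and CD31 in the sample labels. They had received controlled cortical impact (CCI), a severe contusion of the exposed cortex, or a sham craniectomy, and all carried recording electrodes. Injured mice with seizures on the electroencephalogram are called PTE+ (post-traumatic epilepsy) and those without PTE−. Astrocytes were taken with magnetic beads against the surface antigen ACSA-2, separately from the injured (ipsilateral) and the opposite (contralateral) cortex. There were 4 PTE+, 10 PTE− and 5 sham libraries of the ipsilateral side and 4, 9 and 5 of the contralateral side. Of the 20 mice, 17 gave a library of each side.

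Each ribosome is built from ribosomal RNA and 1 copy of nearly every one of these proteins, so the cell makes them in matched amounts. Their messenger RNAs typically begin with an unbroken run of the pyrimidines C and T, the 5′ terminal oligopyrimidine (TOP) element, through which the kinase complex mTORC1 and the RNA-binding protein Larp1 set their translation. In astrocytes ribosomal proteins serve protein synthesis in the cell body and in the fine processes that contact synapses and vessels.

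Values are TPM (transcripts scaled to a fixed total per library), a level corrected for transcript length, so a share of TPM says nothing of the amount of RNA per cell. In bulk libraries fewer cells of a type and less RNA per cell cannot be told apart. The astrocyte markers (Aldoc, Aqp4, Slc1a2 and 7 others) summed to between 16499 and 23068 TPM in all 37 libraries, and none of the 10 was listed at 0 in any library. Microglial, oligodendrocyte and neuronal markers summed to 120 to 957, 527 to 4491 and 76.3 to 784 TPM, so the preparations held RNA of other cells as well. The ipsilateral library of PTE− mouse 9_14 stood apart, with 10727 genes above 0 TPM against 15599 to 18534 in the other libraries, and 7 of the 12 microglial, 9 of the 12 oligodendrocyte and 5 of the 10 neuronal markers were listed at 0 only there.

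Of the main genes, 62 of 77 had a mean above 100 TPM over the 37 libraries, and no main gene fell below 20.2 TPM in any library. Rpl13 of the 60S subunit had 749 ± 210 TPM ipsilaterally (SD, n = 19) and 781 ± 192 TPM contralaterally (SD, n = 18), a mean of 764 TPM. Among the other high genes were Rps2 with 615 TPM, Rps29 with 567.9 TPM and Rpl41, which encodes one of the shortest proteins of the cell, with 563 TPM. Rpl22 had the lowest mean of the main genes, 36.5 TPM. The median mean level was 203 TPM for the 60S genes and 175 TPM for the 40S genes. Of the stalk proteins, which recruit elongation factors to the ribosome, Rplp1 had a mean of 417 TPM, Rplp2 257 TPM and the base of the stalk, Rplp0, 222 TPM. Rpsa, which also serves as a laminin receptor, had 190 TPM and Rps27a, made as a fusion with ubiquitin, 149 TPM. The genes for the Fau fusion that yields Rps30 (308 ± 53.3 TPM) and for Rack1 (89.8 ± 24.4 TPM; SD, n = 37) lie outside the naming rule.

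**Figure D1:**
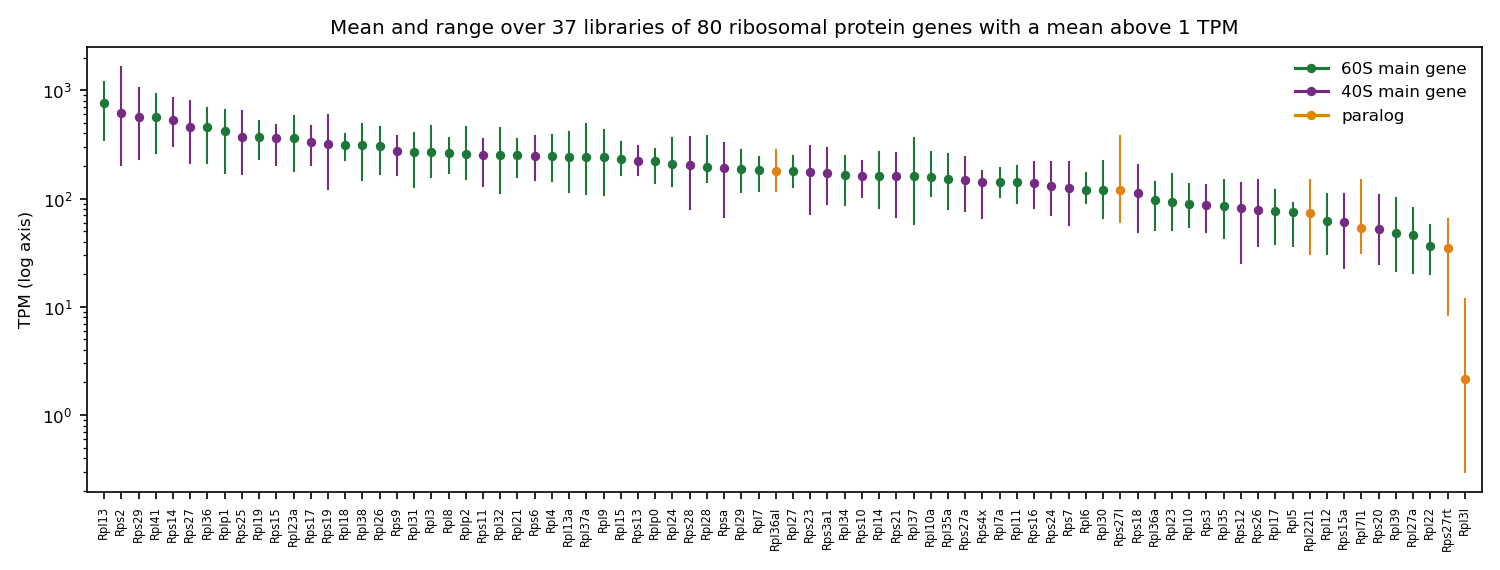
Mean TPM of 80 ribosomal protein genes with a mean above 1 TPM over 37 libraries (points), with the lowest to highest library (lines) on a log axis. Rpl13 (764 TPM) and Rpl22 (36.5 TPM) are the ends of the main genes drawn, while Rpl3l stands apart at 2.13 TPM and its line is cut at 0.3 TPM because it was listed at 0 in a library.

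The paralogs differed widely from their main copies. Rpl10l, a testis-type copy of Rpl10, and Rpl39l, a testis-type copy of Rpl39, had means of 0.0014 and 0.0457 TPM, and Rpl3l, the striated muscle copy of Rpl3, had 2.13 TPM. These 3 did not reach the 5 TPM needed for testing, which left 82 members tested in every comparison. Rpl36al exceeded Rpl36a in all 37 libraries, with ratios from 1.11 to 4.52 and a median of 1.90, and Rpl22l1 exceeded Rpl22 in 36 of 37 libraries, with a median ratio of 2.04 and a range of 0.678 to 3.13. Rpl7l1 reached 0.195 to 0.662 of the level of Rpl7, Rps27l 0.134 to 1.65 of that of Rps27, and Rps27rt, an intronless copy, 0.0234 to 0.200. The highest ratios of Rpl7l1, Rps27l, Rps27rt and Rpl36al all came from the library of mouse 9_14. Without that library their highest ratios were 0.419, 0.509, 0.125 and 2.57. Where a paralog and its main copy share sequence, the estimation may have split reads between them, so levels of such pairs are uncertain. How much sequence they share was not measured. The retrogene Rpl10-ps3, left out by the naming rule, had 140 ± 29.9 TPM (SD, n = 37) beside 89.7 TPM for Rpl10.

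Promoter windows of RefSeq (GRCm38.p6, 250 bases before to 50 after the annotated start) matched 65 of the 85 members by symbol, 57 of them main genes. A run of at least 8 letters made only of C and T, searched from 10 bases before to 20 after the start on the gene's strand, was found in 20 of the 57 main genes (35.1%) and in 1819 of the 16526 genes of the tables with a window, 1 window a gene. Letters outside this stretch were not counted, so a run that crossed its edge was cut there and could fall short of 8. The letters CGGAAG or their reverse complement CTTCCG, the core to which ETS-family factors bind, were present anywhere in the window of 40 of the 57 main genes (70.2%) against 22.2% of all genes. The letters TATAAA, on either strand, were present in 8.77% of the main genes and 12.9% of all genes. The windows below run from 40 bases before to 20 after the start, 5′ to 3′, with the longest run of C and T inside the searched stretch in capitals. In Rps27l and Rpl22 the run continues upstream of the capitals, because it was cut at the edge of that stretch. They show the genes whose levels are described in detail and pairs of a main gene and its paralogs.
Rps18 (chr17:33955646-33955705, minus strand): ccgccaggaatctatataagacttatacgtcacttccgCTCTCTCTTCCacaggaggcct
Rps2 (chr17:24720023-24720082, plus strand): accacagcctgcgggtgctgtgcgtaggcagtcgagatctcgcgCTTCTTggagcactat
Rpl35 (chr2:39005112-39005171, minus strand): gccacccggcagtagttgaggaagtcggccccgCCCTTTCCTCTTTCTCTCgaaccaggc
Rpl10 (chrX:74270776-74270835, plus strand): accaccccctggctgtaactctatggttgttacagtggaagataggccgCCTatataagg
Rps27 (chr3:90213629-90213688, minus strand): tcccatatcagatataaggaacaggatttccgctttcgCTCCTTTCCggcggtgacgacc
Rps27rt (chr9:114982720-114982779, minus strand): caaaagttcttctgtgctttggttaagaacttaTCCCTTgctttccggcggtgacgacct
Rps27l (chr9:66946046-66946105, plus strand): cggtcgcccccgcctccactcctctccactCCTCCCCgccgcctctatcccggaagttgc
Rpl22 (chr4:152325686-152325745, plus strand): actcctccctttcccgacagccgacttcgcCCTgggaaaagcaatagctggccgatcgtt
Rpl22l1 (chr3:28805468-28805527, plus strand): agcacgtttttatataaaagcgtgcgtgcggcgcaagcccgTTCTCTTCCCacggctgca
Rpl35 held a run of 18 letters, Rps18 11, Rpl22l1 10 and Rps27 9, whereas Rpl22 and Rpl10 held 3 inside the searched stretch. The run depends on the start that the annotation gives. The RefSeq start used here lay 336 to 1947 bases from the GENCODE gene start for Rps18, Rpl35 and Rps2. It lay 72 bases away for Rpl22l1 and 16 or fewer for the other genes shown. A short run says only that no longer one lay inside the searched stretch.

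The summed level of the 85 genes differed 2.59-fold between libraries, from 0.998% of all TPM (ipsilateral, sham mouse 9_11) to 2.58% (contralateral, PTE+ mouse 9_18). In the ipsilateral cortex the sham mice had 0.998% (9_11), 1.86% (9_10), 2.07% (8_15), 2.08% (9_9) and 2.46% (8_16). The ipsilateral PTE+ libraries had 1.25% (9_19), 1.61% (9_17), 1.80% (9_18) and 2.16% (8_10), and the 10 PTE− libraries ran from 1.31% over a median of 1.70% to 2.53%. All 3 ipsilateral groups overlapped, and the lowest and nearly the highest value of the hemisphere both came from sham mice. In the contralateral cortex the sham mice had 1.42% (9_11), 1.62% (9_10), 1.81% (8_16), 1.85% (8_15) and 2.03% (9_9). The contralateral PTE+ libraries had 1.39% (8_17), 2.06% (9_17), 2.08% (8_10) and 2.58% (9_18), and the 9 PTE− libraries ran from 1.31% over a median of 1.68% to 2.39%. The groups overlapped here too, with 1 PTE+ library below all sham libraries and 3 above all of them.

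**Figure D2:**
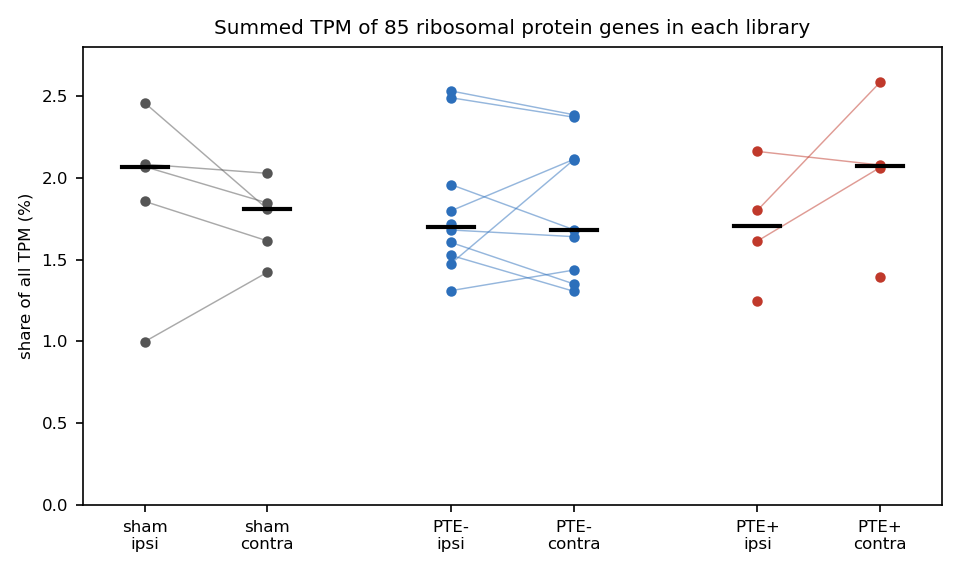
Summed TPM of the 85 ribosomal protein genes as a percent of all TPM, 1 point per library, with lines joining the hemispheres of a mouse and bars at group medians. The groups overlap in both hemispheres, and the sham library of mouse 9_11 (0.998%, ipsilateral) is the lowest of all 37.

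The share varied with the mouse and with other properties of the library. The hemispheres of 1 mouse differed by a median of 0.241 percentage points over 17 mice, and different mice of 1 group by a median of 0.431 over 98 pairs. The ipsilateral share was the higher one in 11 of the 17 mice. Mouse names begin with 8 or 9, a prefix whose meaning the labels do not give. Ipsilaterally, the 7 libraries with prefix 8 had shares of 1.68% to 2.53% (median 2.16%) and the 12 with prefix 9 had 0.998% to 2.08% (median 1.61%). Contralaterally the medians were 1.83% and 1.82%. Mitochondrially encoded transcripts took 1.80% of TPM in the library with the lowest share and 6.53% in the one with the highest, within a range of 1.80% to 11.4%. Neuronal markers summed to 185 to 559 TPM in ipsilateral sham, 78.2 to 784 in PTE− and 308 to 455 in PTE+ libraries, and to 167 to 723, 76.3 to 685 and 166 to 704 TPM in the contralateral groups. Over the 37 libraries, genes of some other lists also moved with the mean log2 level of the main members. The median r was 0.68 for the 13 mitochondrially encoded genes, 0.62 for 77 nuclear genes of oxidative phosphorylation and 0.64 for 9 neuronal markers. For the 10 astrocyte markers it was −0.58. The median r was 0.34 for 22 other TOP transcripts and 0.12 for 78 mitochondrial ribosomal protein genes. For other genes of translation it was nearer 0 or negative: −0.01 for 12 elongation and termination genes and −0.11 for 37 initiation factors. It was −0.14 for 24 genes of mTORC1 and its ribosomal targets and −0.22 for 43 genes of ribosome assembly. The part of the prefix, of mitochondrial transcripts and of other cells in the share was not tested. The ratio of summed 40S to summed 60S genes moved less, from 0.599 to 0.740.

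Members moved together from library to library. Over the 37 libraries the log2 level of a main gene correlated with the mean of the other main genes at a median r of 0.85 (0.34 for Rpl5 to 0.96 for Rpl32), and r was above 0.7 for 65 of 77 genes. Of the 10153 other genes with a mean above 5 TPM, 1.36% had an r above 0.7 with the mean of the members, and their median r was −0.19. These libraries are not independent, since 17 mice gave a pair each, and TPM are shares of 1 total, so the values describe these libraries only. Among the 2926 pairs of main genes the median r was 0.72, and 7 pairs had an r below 0. The paralogs ran from an r of −0.18 for Rpl3l over 0.0055 for Rpl7l1, 0.34 for Rps27l, 0.48 for Rpl36al and 0.57 for Rpl22l1 to 0.77 for Rps27rt, with Rpl10l and Rpl39l near 0 TPM. Among the main genes Rpl5 (0.34), Rpl28 (0.44) and Rpl10 (0.45) were lowest.

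**Figure D3:**
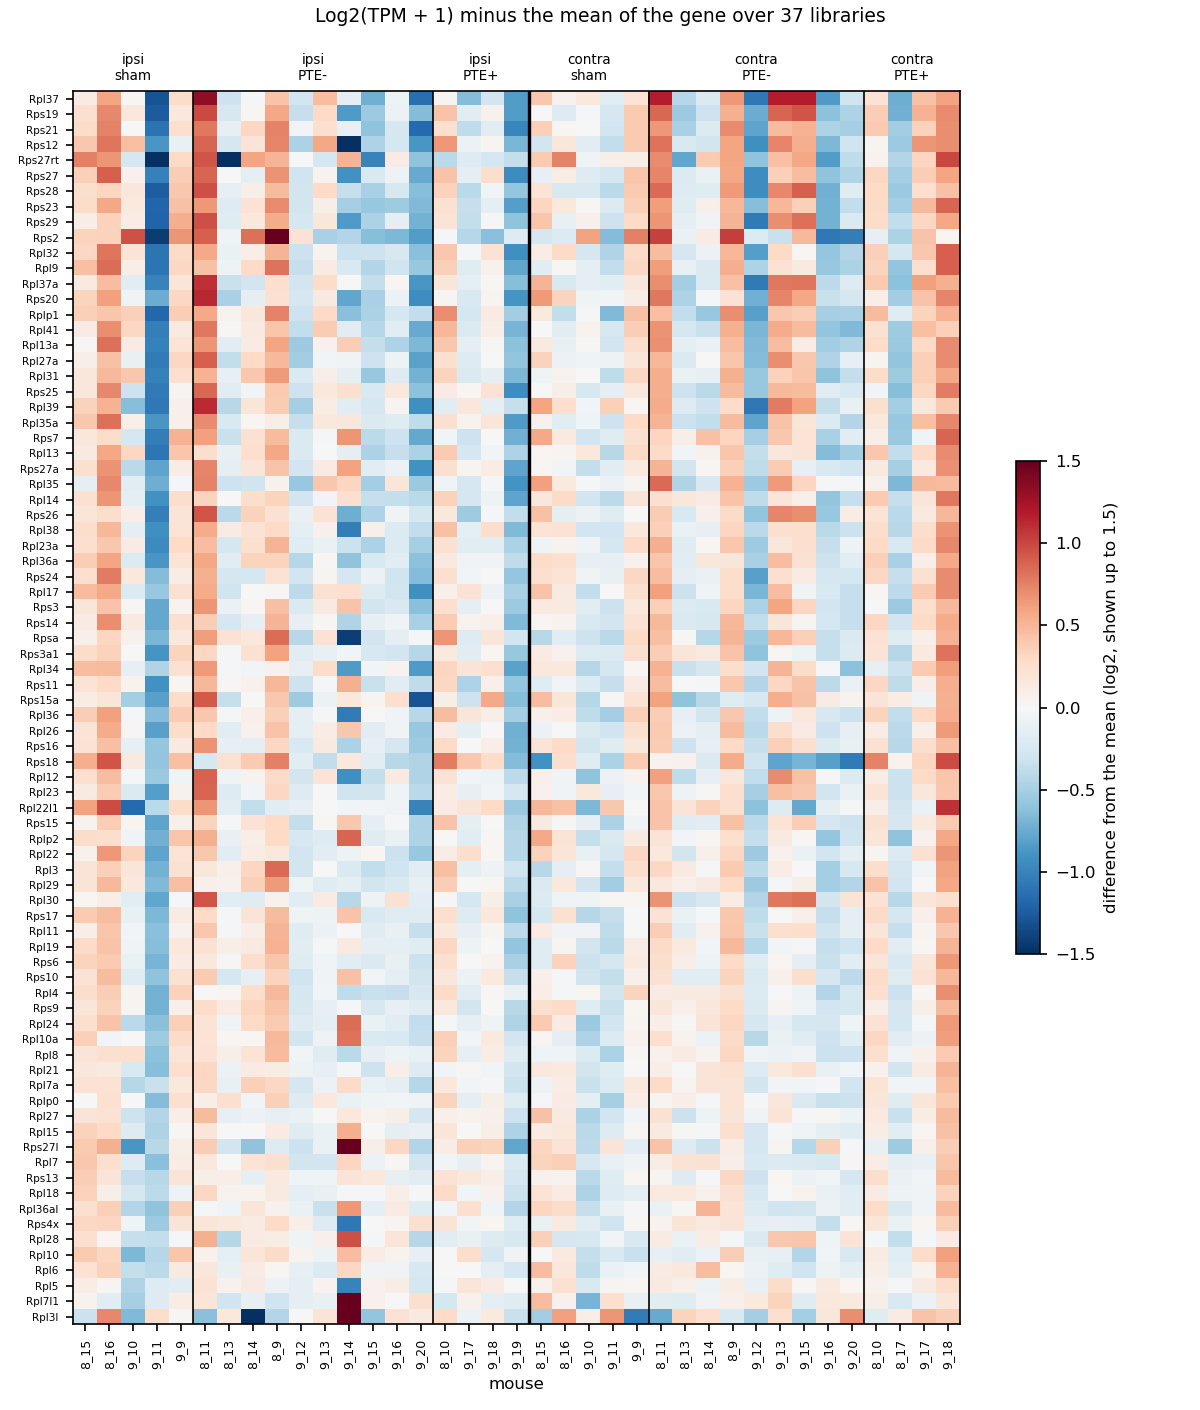
Log2(TPM + 1) of 80 ribosomal protein genes minus its mean over 37 libraries (red above, blue below, shown up to 1.5), with genes ordered by how steeply they follow the mean of the other main genes and libraries ordered by hemisphere, group and mouse. Whole columns are red or blue: ipsilateral sham mouse 9_11 is low for nearly every gene, and PTE− mouse 8_11 is high in both hemispheres.

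Genes differed in how far they moved. The SD of log2(TPM + 1) over the libraries ran from 0.20 for Rpl18, 0.21 for Rps13 and 0.22 for Rpl21 to 0.60 for Rps12, 0.66 for Rpl37 and 0.68 for Rps2. Genes with short coding sequences varied more. The Spearman rho between this SD and the coding length was −0.52 across the 77 main genes, which share libraries and are not independent replicates. The 10 genes with the widest spread had a median coding length of 283.5 bases and the 10 with the narrowest 705 bases. With the whole transcript length in place of the coding length rho was −0.27. The rho between SD and mean TPM was 0.02. The relation to length was looked for after the data were seen. Rpl37 (291 coding bases), Rps21 (249), Rps29 (168), Rps28 (207) and Rps27 (252) were short genes with slopes of 1.51 to 1.86 on the mean log2 level of the others. Rps19 (636), Rps12 (444) and Rps23 (429), nearer to or above the median coding length of 468 bases, had slopes of 1.70, 1.63 and 1.53. The long genes Rpl5 (891), Rpl6 (888) and Rplp0 (951) followed with slopes of 0.24, 0.39 and 0.54. Other genes departed from this order: Rpl3 (1209) and Rpl4 (1257), with the longest coding sequences, had slopes of 0.86 and 0.73, the long genes Rpsa (885), Rps3a1 (792) and Rps3 (729) had 1.03, 1.01 and 1.05, and the short gene Rpl38 (210) had 1.09. Rps2 (906 coding bases) departed further, with the widest spread of all main genes.

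**Figure D4:**
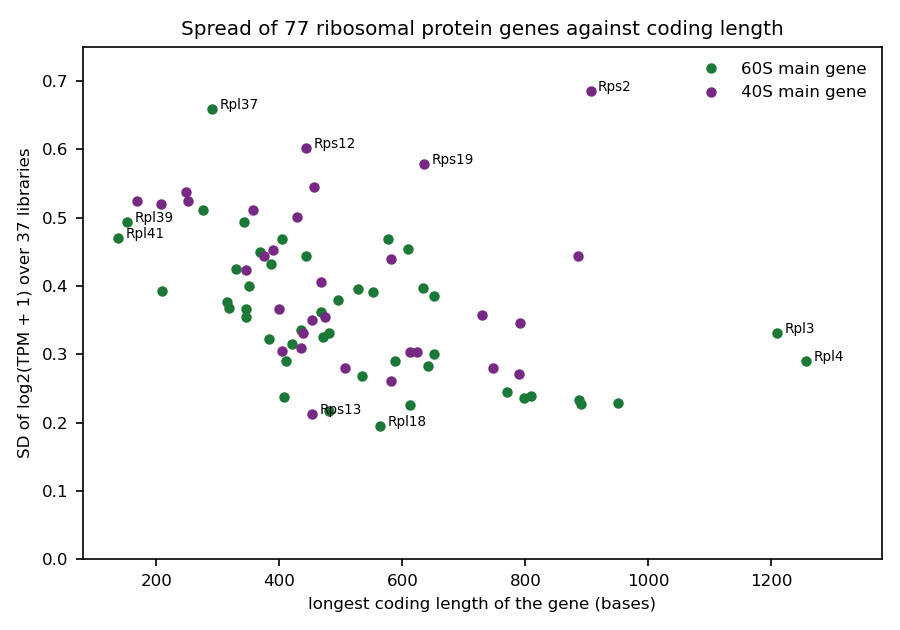
SD of log2(TPM + 1) over 37 libraries against the longest coding length for the 77 main genes, 1 point per gene, coloured by subunit. The spread falls with coding length (rho of −0.52), with Rps2 above the other long genes at an SD of 0.68.

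Rps2, a 40S protein with a role in decoding accuracy, was singled out after its values were seen because it followed the mouse. PTE− mouse 8_9 had 1634 TPM ipsilaterally and 1132 contralaterally, and PTE− mouse 8_11 had 1028 and 1124 TPM. PTE− mouse 9_16 had 345 and 260 TPM, and PTE− mouse 9_20 had 306 and 268 TPM. High and low mice thus occurred within 1 group, but these high mice carry prefix 8 and these low mice prefix 9. Between them lay PTE− mouse 8_13 with 524 and 511 TPM and PTE− mouse 9_12 with 639 and 479 TPM. The sham mice did not follow this order of prefixes. Sham mouse 9_10 had 1065 and 840 TPM, 9_9 869 and 928, 8_16 700 and 477, 8_15 695 and 460, and 9_11 205 and 351. PTE+ mouse 8_10 had 540 and 506 TPM, 9_17 408 and 742, and 9_18 355 and 560. The part of the prefix was not tested. Not every mouse kept its place: PTE− mouse 9_15 had 353 TPM ipsilaterally and 774 contralaterally. Relative to the mean of the other main genes, the log2 level of Rps2 differed by a median of 0.20 between the hemispheres of a mouse. Between different mice, here paired across all groups (272 pairs), it differed by 0.57, and this gap was the widest of any main gene. For the median main gene these distances were 0.14 and 0.19, and 67 of 77 main genes were closer within a mouse. On the absolute log2 scale 78 of the 82 members above 5 TPM (95.1%) and 86.4% of other genes were closer within a mouse than between mice of a group.

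The first comparison asked whether injury changed the ribosomal protein genes of astrocytes, with PTE+ and PTE− mice joined as CCI. The study's thresholds defined a differentially expressed gene (DEG), namely a fold change of 1.2 or more with p below 0.05 before adjustment. In the ipsilateral cortex 0 of the 82 members were DEGs, against 1.62% of the 10434 genes tested with limma. None of the members reached an unadjusted p of 0.05, and no gene of the whole table an adjusted p of 0.05 (0%). The median log2 fold change of the members was −0.04, beside −0.01 over all genes, with 29 members above 0 and 53 below. The members ran from Rps20 of the 40S subunit (45.7 ± 20.7 TPM in 14 CCI libraries and 54.8 ± 17.6 TPM in 5 sham libraries, SD) at −0.29 ± 0.26 (SE) to Rpl7l1 at 0.18 ± 0.21. Below them in size on the negative side stood Rps18 (−0.26 ± 0.24), Rps24 (−0.25 ± 0.19) and Rps12 (−0.25 ± 0.33), and on the positive side Rpl30 (0.14 ± 0.17), Rpl28 (0.12 ± 0.17) and Rps27l (0.10 ± 0.29). The two-sided exact permutation test over 11628 splits gave p of 0.218 to 0.756 for these differences. In the same libraries Gfap, a marker of reactive astrocytes, averaged 653 TPM after CCI and 273 TPM in sham (log2 fold change 1.18 ± 0.29, unadjusted limma p = 0.000523, adjusted p = 0.909). Of the 10 oligodendrocyte markers tested, 5 were lower DEGs, among them Mog (−1.75) and Mag (−1.53), and the 9 neuronal markers had a median of −0.43 with 0 above 0. Their part in the values of the members was not tested.

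The ipsilateral result rested on 1 sham library. Without mouse 9_11, the library with the lowest ribosomal share and the lowest mitochondrial share, the median of the members was −0.23 and 10 of them were lower DEGs, against 0.801% of all genes that were lower DEGs in that fit. Without sham mouse 8_16, which had the highest sham share, the median was 0.07 and 0 members were DEGs. The sign of the median depended on which sham mice were kept.

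In the contralateral cortex 0 of 82 members were DEGs between CCI and sham by limma, against 4.05% of 10556 genes, with 0 members at an unadjusted p under 0.05 and 0% of all genes at an adjusted p under 0.05. The median of the members was 0.08 beside −0.07 over all genes, and 63 of 82 lay above 0. Rpsa stood among the highest at 0.27 ± 0.18 (SE), with 198 ± 51.0 TPM in 13 CCI libraries and 161 ± 36.6 TPM in 5 sham libraries (SD; exact permutation p = 0.176 over 8568 splits). Rpl12 (0.23 ± 0.18) was also among them. The lowest were Rpl39 (−0.20 ± 0.23), Rps27rt (−0.17 ± 0.27), Rpl22l1 (−0.11 ± 0.23) and Rps20 (−0.10 ± 0.23) (exact permutation p of 0.426 to 0.691).

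**Figure D5:**
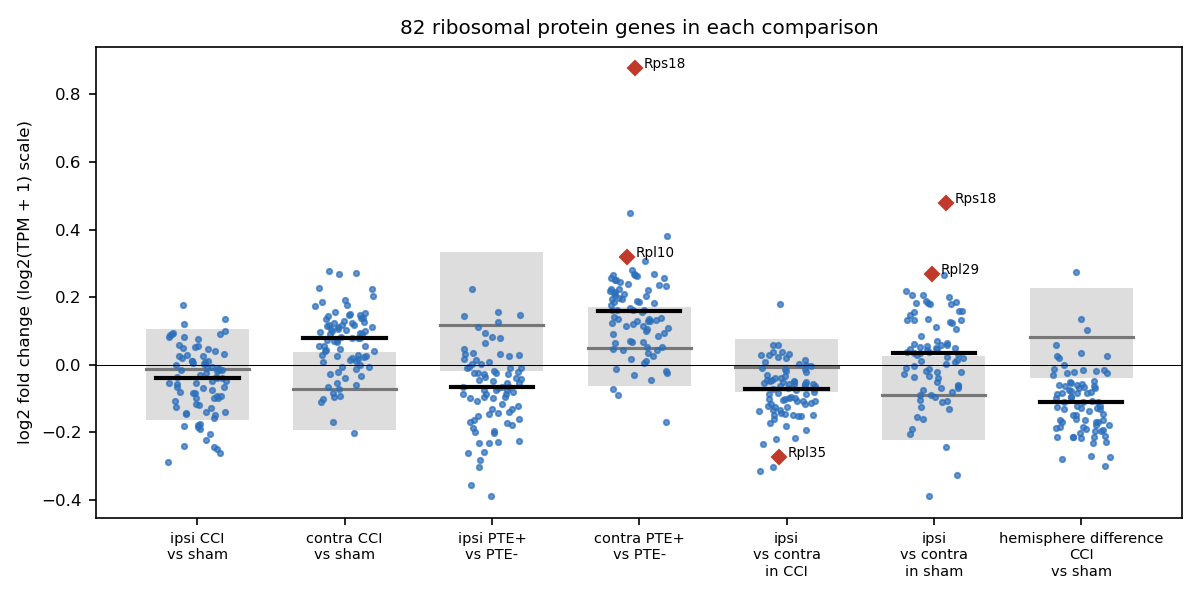
Log2 fold change of the 82 tested ribosomal protein genes in each comparison (points, red diamonds for DEGs) with their median (black line), the median of all tested genes (grey line) and the interquartile range of the other genes (grey box). The medians of the members lie between −0.11 and 0.16, and 5 gene-by-comparison values are DEGs.

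The next comparison asked whether injured mice with and without epilepsy differed. In the ipsilateral cortex 0 of 82 members were DEGs between PTE+ and PTE− by limma, against 0.573% of 10473 genes, with 0 members at an unadjusted p under 0.05 and 0% of genes at an adjusted p under 0.05. The median was −0.07 for the members and 0.12 for all genes, and 61 of 82 members lay below 0. Rpl37 (−0.39 ± 0.33, SE), Rps2 (−0.36 ± 0.38), Rps21 (−0.30 ± 0.31) and Rpl28 (−0.28 ± 0.20) stood lowest. Rpl28 had 163, 168, 173 and 178 TPM in the 4 PTE+ mice and 143 to 378 TPM (median 206) in the 10 PTE− mice, so that every PTE+ value lay below the PTE− median but within the PTE− range, whose top came from mouse 9_14 (exact permutation p = 0.206 over 1001 splits). Rps18 (0.23 ± 0.25), Rpl5 (0.16 ± 0.18), Rpl22l1 (0.15 ± 0.23) and Rpl36 (0.14 ± 0.22) stood highest. Without PTE+ mouse 9_19, the lowest of its group in ribosomal share, the median of the members was 0.07 with 61 of 82 above 0, and 1 member was a DEG, against 0.604% of all genes in that fit. Without PTE− mouse 9_14, 0 members were DEGs, against 1.89% of 10440 genes. With the prefix as covariate the median was −0.0094 with 37 of 82 above 0. The mean log2 level of the main genes in PTE+ minus PTE− mice was −0.0004 within prefix 8 (1 against 4) and −0.0073 within prefix 9 (3 against 6). Neuronal markers had a median of 0.73 here, with 9 of 9 above 0, and their part was not tested.

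In the contralateral cortex 2 of 82 members (Rps18 and Rpl10) were higher DEGs in PTE+ than in PTE− mice by limma, against 2.79% of 10423 genes, a share near the background. No gene reached an adjusted p of 0.05 (0%). Rps18, a 40S protein at the contact between the subunits, had 108 (8_17), 130 (9_17), 175 (8_10) and 205 TPM (9_18) in the PTE+ mice and 49.5 to 153 TPM (median 84.7) in the 9 PTE− mice. All 4 PTE+ values were above the PTE− median, while the ranges overlapped. Its log2 fold change was 0.88 ± 0.26 (SE; unadjusted limma p = 0.00412, adjusted p = 0.999; exact permutation p = 0.0182 over 715 splits). In the sham mice of that hemisphere it had 55.1, 74.5, 91.8, 125 and 136 TPM. The difference was 0.29 among mice with prefix 8 (2 against 4) and 1.38 among those with prefix 9 (2 against 5). Rps18 stayed a DEG without each PTE+ mouse in turn (0.73 to 1.03).

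Rpl10, a 60S protein near the catalytic centre whose gene is on the X chromosome, had 78.3 (8_17), 96.0 (8_10), 107 (9_17) and 135 TPM (9_18) in PTE+ mice and 64.6 to 114 TPM (median 81.0) in PTE− mice. Its ranges overlapped more (log2 fold change 0.32 ± 0.15, unadjusted limma p = 0.0471, adjusted p = 0.999; exact permutation p = 0.049). Without mouse 9_18 the fold change was 0.18 and Rpl10 was not a DEG, and the difference was −0.02 within prefix 8 and 0.64 within prefix 9. Rpl32 (0.45 ± 0.25) and Rplp1 (0.38 ± 0.27) had larger fold changes without passing the test. On the other side Rpl28 (−0.17 ± 0.13), Rpl30 (−0.09 ± 0.24) and Rpl7l1 (−0.05 ± 0.13) were among the lowest.

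The median of all members was 0.16 beside 0.05 for all genes, with 74 of 82 above 0. This shift also followed single mice: without PTE+ mouse 8_17, the lowest of its group, 15 members were higher DEGs, against 3.38% of all genes that were higher DEGs in that fit. Without PTE+ mouse 9_18 the median of the members was 0.02. The mean log2 level of the main genes in PTE+ minus PTE− mice was −0.21 within prefix 8 and 0.50 within prefix 9. Neuronal markers had a median of 0.64 and endothelial markers of 0.70 in the same comparison, with 9 of 9 tested above 0 in both lists, and their part in the values of the members was not tested.

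The hemispheres of the same mice were compared with the mouse as a block. In the 12 injured mice with both libraries 1 of 82 members was a DEG (Rpl35) by limma, against 4.65% of 10869 genes. No member reached an adjusted p of 0.05, against 0.175% of all genes. Rpl35, a 60S protein at the exit tunnel, differed between hemispheres by −0.83 (9_15) to 0.20 (9_16) on the log2 scale (median −0.18) and was lower ipsilaterally in 10 of 12 mice. Its mean difference was −0.27 ± 0.10 (SE; unadjusted limma p = 0.0166, adjusted p = 0.419; exact permutation p = 0.019 over 4096 sign changes). The members had a median of −0.07 beside −0.01 for all genes, and 69 of 82 lay below 0. In the same fit 6 of 10 oligodendrocyte markers (median −0.60) and 5 of 9 endothelial markers (median −0.42) were lower DEGs, and their part in the values of the members was not tested. Rpl37 (−0.32 ± 0.19), Rps27rt (−0.30 ± 0.20) and Rps20 (−0.24 ± 0.12) were the other members furthest below 0, and Rps18 (0.18 ± 0.12), Rpsa (0.06 ± 0.10), Rps4x (0.06 ± 0.06) and Rplp1 (0.04 ± 0.12) the furthest above. Without PTE+ mouse 9_17 or 9_18 no member was a DEG.

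In the 5 sham mice 2 of 82 members, Rps18 and Rpl29, were DEGs by limma, both higher ipsilaterally. Of all genes, 8.92% were DEGs in either direction and 0% reached an adjusted p under 0.05. The members had a median of 0.03 beside −0.09 for all genes. Of the members 50 of 82 lay above 0, against 30.3% of all genes. Rps18 had 152 against 55.1 TPM (8_15), 201 against 125 (8_16), 115 against 91.8 (9_10), 143 against 136 (9_9) and 68.5 against 74.5 TPM (9_11), ipsilateral first. It was higher ipsilaterally in 4 of 5 mice, by 0.48 ± 0.19 (SE; unadjusted limma p = 0.0175, adjusted p = 0.435). Rpl29, a 60S protein, had 210 against 156 TPM (8_15), 257 against 204 (8_16), 204 against 150 (9_10), 249 against 204 (9_9) and 115 against 127 TPM (9_11), a difference of 0.27 ± 0.12 (unadjusted limma p = 0.0425, adjusted p = 0.475). The exact permutation test over 5 mice cannot go below 0.0625, and gave 0.188 for Rps18 and 0.125 for Rpl29. Rpl39 (−0.39 ± 0.23), Rps27rt (−0.33 ± 0.31), Rps15a (−0.24 ± 0.20) and Rpl35 (−0.20 ± 0.16) were lowest. Without mouse 8_15 neither Rps18 nor Rpl29 was a DEG. Without mouse 9_11, 15 members were higher DEGs, against 1.32% of all genes that were higher DEGs in that fit. Without mouse 8_16, 2 members were lower DEGs, against 9.01% of all genes that were DEGs in either direction.

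The difference of these hemisphere effects between injured and sham mice was tested as an interaction. It gave 0 of 82 member DEGs by limma, with 0 at an unadjusted p under 0.05, against 6.39% of 10869 genes and 0% at an adjusted p under 0.05. The members had a median of −0.11 beside 0.08 for all genes, and 73 of 82 lay below 0, from Rps18 (−0.30 ± 0.22, SE), Rpl9 (−0.27 ± 0.22) and Rps12 (−0.27 ± 0.27) to Rps27l (0.06 ± 0.16), Rpl5 (0.10 ± 0.09), Rps15a (0.14 ± 0.24) and Rpl39 (0.28 ± 0.28). Oligodendrocyte markers had a median of −0.68 in the interaction, with 1 of 10 above 0, and ependymal markers of 1.002, with 5 of 5 above 0. Their part was not tested. This fit shares sham mouse 9_11 with the comparisons above, and without it 15 members were lower DEGs, against 1.48% of all genes that were lower DEGs in that fit.

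Other genes of translation were read against the same shares over all genes. These were 1.62% and 4.05% for CCI against sham and 0.573% and 2.79% for PTE+ against PTE− (ipsilateral first). Without PTE− mouse 9_14 the 2 ipsilateral shares were 3.83% and 1.89%. Between hemispheres the share was 8.92% in sham and 4.65% in injured mice, and it was 6.39% in the interaction. Among the 22 other TOP transcripts in the tables the contralateral comparisons gave 0 DEGs and the ipsilateral CCI comparison 1, the intermediate filament gene Vim (0.95, limma p = 0.000141, adjusted p = 0.453). Of the 78 mitochondrial ribosomal protein genes, which serve a separate ribosome, 1 was lower ipsilaterally after CCI (Mrpl52, −0.33), 1 was higher contralaterally (Mrpl30, 0.28), and contralaterally in PTE+ 1 was higher (Mrpl54, 0.31) and 2 lower (Mrpl51, −0.41, and Mrpl35, −0.31). Of 37 initiation factors, Eif4a2 was lower contralaterally after CCI (−0.28) and Eif2s1 lower contralaterally in PTE+ (−0.57). Of 44 tested genes of ribosome assembly, Wdr75 was higher ipsilaterally after CCI (0.42) and Gnl3 lower contralaterally (−0.40). Of 24 tested genes of mTORC1 and its ribosomal targets, Lamtor2 was higher contralaterally after CCI (0.27). Of 5 tested genes of the MYC network, Myc itself was higher ipsilaterally after CCI (0.80, 11.6 against 5.90 TPM). Of 12 elongation and termination genes, Eef1e1 was lower contralaterally in PTE+ (−0.46). Between the sham hemispheres more of these genes were lower ipsilaterally, as were genes at large (median −0.09, 8.92% DEGs in either direction). The lower DEGs were 3 of 12 elongation and termination genes (among them Gspt1 and Etf1) and 3 of 45 genes of ribosome assembly. A further 3 of 78 mitochondrial ribosomal protein genes and 2 of 24 mTORC1 genes (Larp4 and Larp1) were lower. So were 1 initiation factor (Eif5b) and 1 TOP transcript (Vim). Between the hemispheres of injured mice, Vim was higher ipsilaterally and 1 mitochondrial ribosomal protein gene (Mrpl47) and 1 mTORC1 gene (Rps6kb1) lower. In the interaction 3 genes of these lists were higher and 4 lower. In the ipsilateral comparison of PTE+ with PTE− none of these 7 lists held a DEG, while 4 of 8 tested immediate early genes were lower in PTE+, Fos at −1.78 and Egr1 at −1.31.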

How the data were processed

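Per the labels and the methods of the study, libraries were made with the SMART-Seq v4 kit, and the authors trimmed reads with Trim Galore (0.6.4), estimated abundance with RSEM (1.2.28) and Bowtie2 (2.4.1) on mm10, and tested counts with DESeq2 (1.36.0). The authors deposited TPM per Ensembl gene in 1 table per hemisphere. The annotation release is not given in the sources used here. TPM keep no depth, so depth is unknown and counting error could not be separated.

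Here GENCODE M21 gave symbols and positions to 21933 of 21975 identifiers. Log2(TPM + 1) was fitted with limma 3.58.1 (R 4.3.3, variance trend) over all genes with a mean above 5 TPM in 1 compared group, and p-values were adjusted over all of them by Benjamini-Hochberg. A fold change on this scale understates changes of low genes. Two-sided exact permutation tests over libraries were made for single genes. Hemispheres were paired by the mouse name in the labels. Within a hemisphere each library is a separate mouse per the labels. Coding length is the longest coding sequence in the annotation. Python 3.11.15 (numpy 2.4.6, pandas 2.3.3, scipy 1.17.1, matplotlib 3.10.9) was used. The members and lists were chosen with earlier results of these data known. Named are the 5 highest and 5 lowest members, the 4 largest fold changes in each direction and all member DEGs of each comparison, paralogs with their main copies, and Rplp0 to Rplp2, Rpsa and Rps27a. Of other lists up to 2 DEGs per direction are named. Some genes that this rule would name are not reported here, though they remain in all counts, sums and medians.

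Alternatives were a pseudocount of 0.1, no filter or 1 TPM, quantile normalization, centring on the median or on the members, a joint fit of the 3 groups, array weights, the prefix as covariate, fold thresholds, no block, and single PTE+ and sham mice and PTE− mouse 9_14 left out. On simulated data the fits called 81%, 96.5%, 76% and 94% of 2-fold changes in the comparisons of ipsilateral CCI, contralateral CCI, ipsilateral PTE+ and contralateral PTE+. Of the unchanged genes they called 4.85%, 4.41%, 4.78% and 4.73%. Each simulated gene had its own noise, whereas the members moved together. No smaller changes were simulated, so these values do not show how often changes of the size seen in the members would be called.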

Additional observations from a re-analysis of the deposited data

Results flagged for a closer look

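In 78 groups of 4 to 10 libraries, covering summed levels, the paralogs and the DEGs among the members, 9 had a single library far from the others by Dixon's criterion. Chance alone flags about 1 group in 20. Of these, 5 were the ipsilateral library of PTE− mouse 9_14, in which the paralogs took 0.0931% of TPM (next 0.0552%), Rps27l stood at 378 TPM (next 146), Rpl7l1 at 149 TPM (next 60.8), Rpl36al at 279 TPM (next 201) and Rpl3l at 11.8 TPM (next 2.27). That library also had the fewest genes above 0 TPM.

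The ratio of summed 40S to 60S genes was 0.608 in the ipsilateral library of sham mouse 9_11 (next 0.656). Rpl22l1 stood at 111 TPM ipsilaterally in PTE− mouse 8_11 (next 69.7). Contralaterally Rpl10 stood at 114 TPM in PTE− mouse 8_9 (next 85.7), and Rpl35 at 125 TPM in sham mouse 8_15 (next 90.3).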

How the results depend on the processing

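Of 199 alternative values of the counts, medians and shares, 29 counts of member DEGs moved, either by more than 1.5 times or between 0 and any other count. The cause was not tested unless the setting itself shows it. Medians of the members moved by less than the spread between mice. Between CCI and sham they ran from −0.23 to 0.07 ipsilaterally and 0.02 to 0.18 contralaterally. Between PTE+ and PTE− they ran from −0.18 to 0.07 and from 0.02 to 0.31. Centring on the members is left out of these ranges, since it puts their median near 0 by construction (0.0027 and 0.0028 contralaterally). With array weights, which give outlying libraries less say, 13 members were DEGs ipsilaterally between CCI and sham and 10 contralaterally between PTE+ and PTE−, where 8.08% and 7.94% of all genes were DEGs, and the ipsilateral median was −0.22. Median centring gave 1 contralaterally between CCI and sham, 1 contralaterally between PTE+ and PTE−, 10 between the hemispheres of sham mice and 5 in the interaction, against 3.88%, 3.46%, 6.28% and 5.61% of all genes. Contralaterally between PTE+ and PTE−, quantile normalization, centring on the members, the prefix covariate and a fold of 1.5 each left 1, and in sham mice quantile normalization left 1 between hemispheres. A fold of 1.5 left 0 between hemispheres in injured and in sham mice. Without the mouse as a block (no pairing) 0 members were DEGs in either hemisphere comparison, and the interaction stayed at 0. Leaving out single PTE+ or sham mice gave 0 to 10 member DEGs ipsilaterally and 0 to 2 contralaterally between CCI and sham, 0 to 1 ipsilaterally and 1 to 15 contralaterally between PTE+ and PTE−, 0 to 1 and 0 to 15 between hemispheres in injured and sham mice, and 0 to 15 in the interaction. PTE− mice other than 9_14 were not left out. The 10 came without sham mouse 9_11, the 2 without sham mouse 9_9, the 1 ipsilaterally without PTE+ mouse 9_19, the 15 contralaterally without PTE+ mouse 8_17 and the other 15 without sham mouse 9_11.

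Single genes changed sign, including some named above for the largest fold changes of their comparison. Ipsilaterally between CCI and sham, array weights gave −0.046 for Rpl7l1, −0.062 for Rpl28 and −0.13 for Rps27l, and Rps27l stood at −0.031 without PTE− mouse 9_14. Leaving out single mice there gave −0.019 to 0.20 for Rpl30 and −0.11 to 0.25 for Rps27l. Contralaterally it gave −0.17 to 0.0095 for Rps20 between CCI and sham, and between PTE+ and PTE− −0.15 to 0.066 for Rpl30 and −0.11 to 0.028 for Rpl7l1, which array weights put at 0.021. In sham mice Rps27rt ran from −0.50 to 0.068. In the interaction Rps15a ran from −0.012 to 0.21 and Rps27l from −0.070 to 0.16, and median centring gave −0.017 for Rpl5 and −0.062 for Rps27l.

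Under the alternatives run for it, Rps18 stayed a DEG contralaterally between PTE+ and PTE− (0.72 to 1.03), while Rpl10 did not under quantile normalization, both centrings, the prefix covariate or without mice 8_10, 9_17 or 9_18. Median centring moved the median of the members to 0.18 contralaterally between CCI and sham, 0.15 between sham hemispheres and −0.23 in the interaction. The rho of spread with coding length, an analysis chosen after seeing the data, was −0.51 to −0.52 without mouse 9_14 or 9_11 ipsilaterally and within each hemisphere. TPM keep no counts, so the depth behind low values is unknown.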
